A study of Mus musculus with 2 samples.

Results

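B cells recognise antigen through the B cell receptor, in which a membrane immunoglobulin is paired with the signal chains CD79a and CD79b. Engaged receptors are phosphorylated by Src family kinases and Syk, adaptor proteins then recruit Btk, phospholipase C γ2 and PI 3-kinase, and phosphatases recruited by inhibitory receptors such as CD22 and CD72 restrain the signal. The genes that give a splenic B cell its identity are kept on by transcription factors such as Ebf1, the E2A gene Tcf3 and the octamer-binding factor Pou2f2 with its coactivator Pou2af1. A set of 39 gene symbols for these functions, listed by their known roles, was followed in splenocytes. Faim3 is an older symbol of Fcmr, so the set holds 38 genes, of which 33 had a probe set named with exactly 1 symbol, out of 12393 such genes on the array. Bank1, Cd38, Fcmr, Lyn and Siglecg had none and are not analysed here.

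The GPI-immunized group consisted of male DBA/1 mice given 300 μg of recombinant human glucose-6-phosphate isomerase fused to glutathione S-transferase (GPI-GST). The control-immunized group consisted of male DBA/1 mice given 100 μg of GST, so GST and the complete Freund's adjuvant were common to both. Immunization with GPI gives mice of this strain an arthritis. The mice were obtained at 6 to 8 weeks of age and 3 spleens per group were harvested on day 10. Each group is represented by 1 Affymetrix mouse 430A2.0 GeneChip of splenocyte RNA, and the sources used here do not say whether the spleens were pooled. On a GeneChip the short oligonucleotides for a transcript form a probe set, whose brightness is summarised as 1 signal, and each gene was read from its brightest probe set (by mean log2 signal over both arrays). No replicate exists and no test could be made, and every ratio below (GPI-immunized over control-immunized signal) describes these 2 arrays. Since whole splenocytes were read, a smaller part of the RNA coming from B cells and a lower level of a transcript within B cells cannot be told apart.

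Over 22626 probe sets the GPI-immunized array had a median signal of 51.8, against 48.65 for the control-immunized array. Bacterial probe sets with no target in mouse RNA reached 7.2 on the GPI-immunized array against 14.1 on the control-immunized array. Counts were taken over genes where the higher of the 2 signals was at least 50.2, the 50th percentile of all signals, which 6961 genes passed. Over 2538 pairs of probe sets for the same gene, the log2 ratio of one had an SD of 0.26 (a factor of 1.20), which covers measurement within the arrays and no difference between mice. Of 18 probe sets for transcripts that Affymetrix protocols spike into the hybridization (bioB, bioC, bioD and cre), 17 were dimmer on the GPI-immunized array, with a median ratio of 0.873 (0.759 to 1.16). Their ratios ran opposite to the median of all mouse genes, so levels are also given relative to that median.

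Most B cell genes had a lower signal on the GPI-immunized array, by a modest and uneven amount. Of the 33 measured genes 32 passed the signal limit, 31 of them on both arrays, and 26 of the 32 had a ratio below 1, against 42.4% of all 6961 genes. That share of all genes was 54.89%, 53.42% and 51.83% with the arrays scaled by their medians, by quantiles and by loess, and 20.53% with the spiked transcripts as the scale, when 20 members were below 1. The median log2 ratio of the 32 was -0.32 (SD 0.32 across genes), a ratio of 0.803, beside 0.06 for all genes, so the members lay 0.37 below the array as a whole (difference of medians -0.37). By more than the probe set spread of 0.26, 19 members were lower (16.2% of all genes) and 3 higher (25.6% of all genes), while 10 lay within it. Syk among the 19, and Tcf3 and Cd86 among the 3, had other probe sets on the opposite side of 1, and Pik3ap1 passed the limit on the GPI-immunized array only. In all, 14 of the 32 fell among the lowest 10% of all ratios. Of the 32 genes 0 were at least 2-fold lower (0.445% of all genes) and 0 at least 2-fold higher (2.23% of all genes). At least 1.5-fold lower, a ratio of at most 0.667, were 3 members (3.23% of all genes), namely Cd55, Hhex and Cd72, and 0 were at least 1.5-fold higher (7.04% of all genes). The count of 3 rests on the scaling, since Blk, Cd40, Vpreb3, Ralgps2 and Tnfrsf13b lay just outside at 0.674 to 0.684. Dividing each array by its median made the count 10 (5.49% of all genes), and scaling to the spiked transcripts made it 0 (1.26% of all genes). Bright genes gave the same picture. Of the 28 members with a signal of at least 220.2, the 75th percentile, 24 had a ratio below 1 (42.0% of 3862 genes), and 3 were at least 1.5-fold lower (2.25% of these genes).

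**Figure D1:**
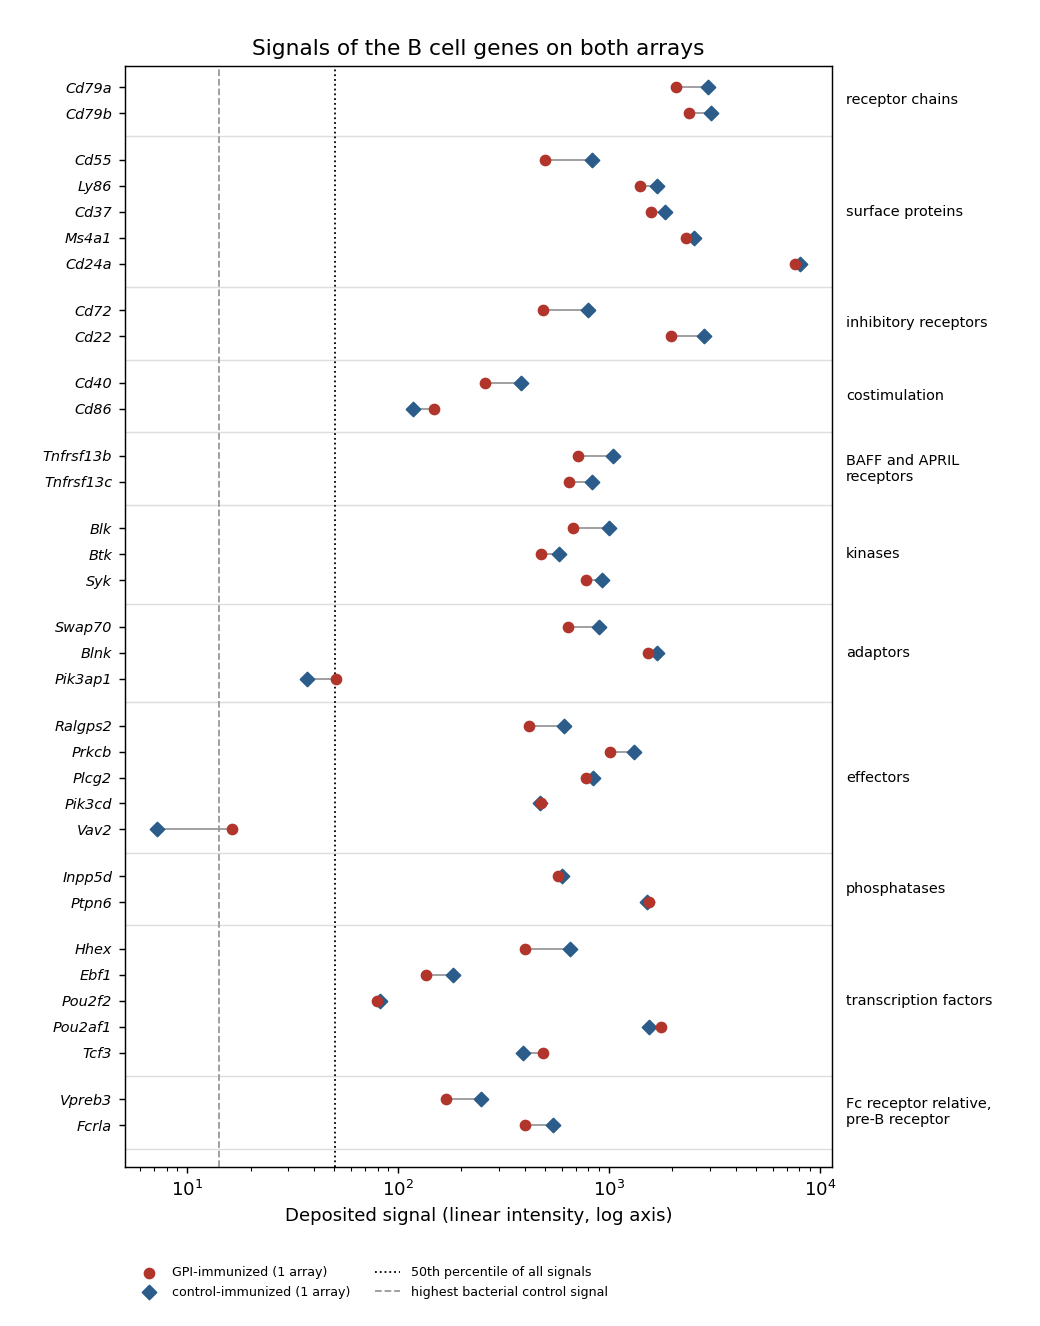
Deposited signal (horizontal log axis, linear intensity) of the 33 measured B cell genes, grouped by role, with circles for the GPI-immunized array and diamonds for the control-immunized array (1 array per group, no error bars). Most circles lie to the left of their diamonds, as for Cd79a at 2076.5 and 2961.3, while Pou2af1, Tcf3, Cd86, Pik3ap1, Vav2 and, by little, Pik3cd and Ptpn6 lie to the right, Vav2 below the dotted limit of 50.2.

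The signal chains of the receptor itself were dimmer on the GPI-immunized array. Cd79a (Entrez Gene 12518), which carries one of the activation motifs of the complex, had a signal of 2076.5 on the GPI-immunized array against 2961.3 on the control-immunized array, a ratio of 0.701. Cd79b (15985), its partner chain, had signals of 2407.7 and 3044.0 on the same arrays, a ratio of 0.791. Both chains were read by 1 probe set each. The gap between their log2 ratios (-0.51 and -0.34) is smaller than the SD of 0.26 that the log2 ratio of 1 probe set had.

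The 5 measured surface proteins outside the signal chains and inhibitory, costimulatory and survival factor receptors all had ratios below 1, from 0.597 to 0.950. Cd55 (13136), decay-accelerating factor, which protects cells from complement and is not restricted to B cells, had the lowest ratio of the whole set. Cd55 read 498.7 on the GPI-immunized array against 835.0 on the control-immunized array, and a dimmer probe set gave 390.6 against 830.1, a ratio of 0.471. Ly86 (17084) encodes MD-1, the partner of the Toll-like receptor relative RP105 on B cells, and had signals of 1400.3 on the GPI-immunized and 1691.1 on the control-immunized array (ratio 0.828). The tetraspanin gene Cd37 had 1579.4 against 1853.9 (0.852). The gene for CD20, Ms4a1 (12482), stood out among the B cell markers for lying close to 1. Its brighter probe set read 2325.8 on the GPI-immunized and 2528.8 on the control-immunized array (0.920), while the dimmer one read 1711.9 and 2187.8 (0.782). Cd24a, the heat-stable antigen, which erythroid cells and neutrophils carry too, read 7636.6 against 8040.1 (0.950). These signals lie near the top of the scale, where the brightest probe sets read 9762 on the GPI-immunized and 9642 on the control-immunized array.

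Both measured inhibitory receptors had ratios among the lower ones. Cd72 (12517), which recruits the phosphatase SHP-1, had a signal of 485.0 on the GPI-immunized array against 791.9 on the control-immunized array, a ratio of 0.612. Cd22 (12483), a sialic acid-binding lectin that dampens receptor signalling, read 1973.5 against 2808.9 (0.703), and its second probe set 758.2 against 989.8 (0.766). The receptors for the survival factors BAFF and APRIL were dimmer as well. Tnfrsf13b (TACI) read 712.9 on the GPI-immunized and 1041.8 on the control-immunized array (0.684), and Tnfrsf13c (the BAFF receptor) read 649.3 and 829.3 (0.783). For T cell help the picture was divided. Cd40 (21939), through which helper T cells activate B cells, read 258.7 on the GPI-immunized and 381.5 on the control-immunized array (0.678), with a second probe set at 0.683. Cd86, the CD28 ligand, which activated B cells share with dendritic cells and macrophages, read 148.8 against 117.4 (1.27), but its other probe set read 118.8 against 124.8 (0.952), so its probe sets fell on both sides of 1.

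Among the kinases of the cascade the lowest ratio was that of Blk. This gene (12143) encodes a Src family kinase of B-lineage cells and read 677.3 on the GPI-immunized and 1004.6 on the control-immunized array, a ratio of 0.674. Btk, the Tec family kinase whose loss blocks B cell development in man, read 474.3 against 582.1 (0.815). Syk, which T cell precursors and myeloid cells also use, read 775.5 against 932.3 (0.832) with its brightest probe set and 1.12 and 1.14 with the other 2, so no side of 1 can be given for it.

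The adaptor genes differed among themselves. Swap70, a B cell protein that moves to the nucleus on activation, read 640.0 on the GPI-immunized and 900.2 on the control-immunized array (0.711). Blnk, the scaffold that links Syk to Btk and phospholipase C γ2, read 1534.0 against 1690.1 (0.908), within the spread between probe sets. Pik3ap1 (BCAP), an adaptor for PI 3-kinase that macrophages also express, read 51.0 against 37.1 (1.37), dim on both arrays and past the limit of 50.2 on the GPI-immunized array only.

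Of the enzymes and exchange factors further down, 2 were lower by more than the spread between probe sets. Ralgps2, an exchange factor for Ral GTPases, read 416.9 on the GPI-immunized and 610.2 on the control-immunized array (0.683), with all 3 probe sets between 0.647 and 0.739. Prkcb, the protein kinase C isoform that couples the receptor to NF-κB, read 1014.1 against 1315.8 (0.771) and, with its dimmer probe set, 186.7 against 349.9 (0.534). Plcg2, which releases the second messengers for calcium, read 778.7 against 840.3 (0.927). The PI 3-kinase subunit gene Pik3cd, active in all leukocytes, read 475.5 against 472.1 (1.01), although a further probe set read 223.1 against 142.8 (1.56). Vav2 read 16.3 on the GPI-immunized and 7.2 on the control-immunized array, close to the bacterial probe sets, so no fold is given for it. The phosphatases, negative regulators that myeloid and T cells use as well, lay near 1. Inpp5d (SHIP-1) read 573.1 on the GPI-immunized and 600.1 on the control-immunized array (0.955), and Ptpn6 (SHP-1) read 1549.9 and 1513.5 (1.02), each with probe sets on both sides of 1.

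**Figure D2:**
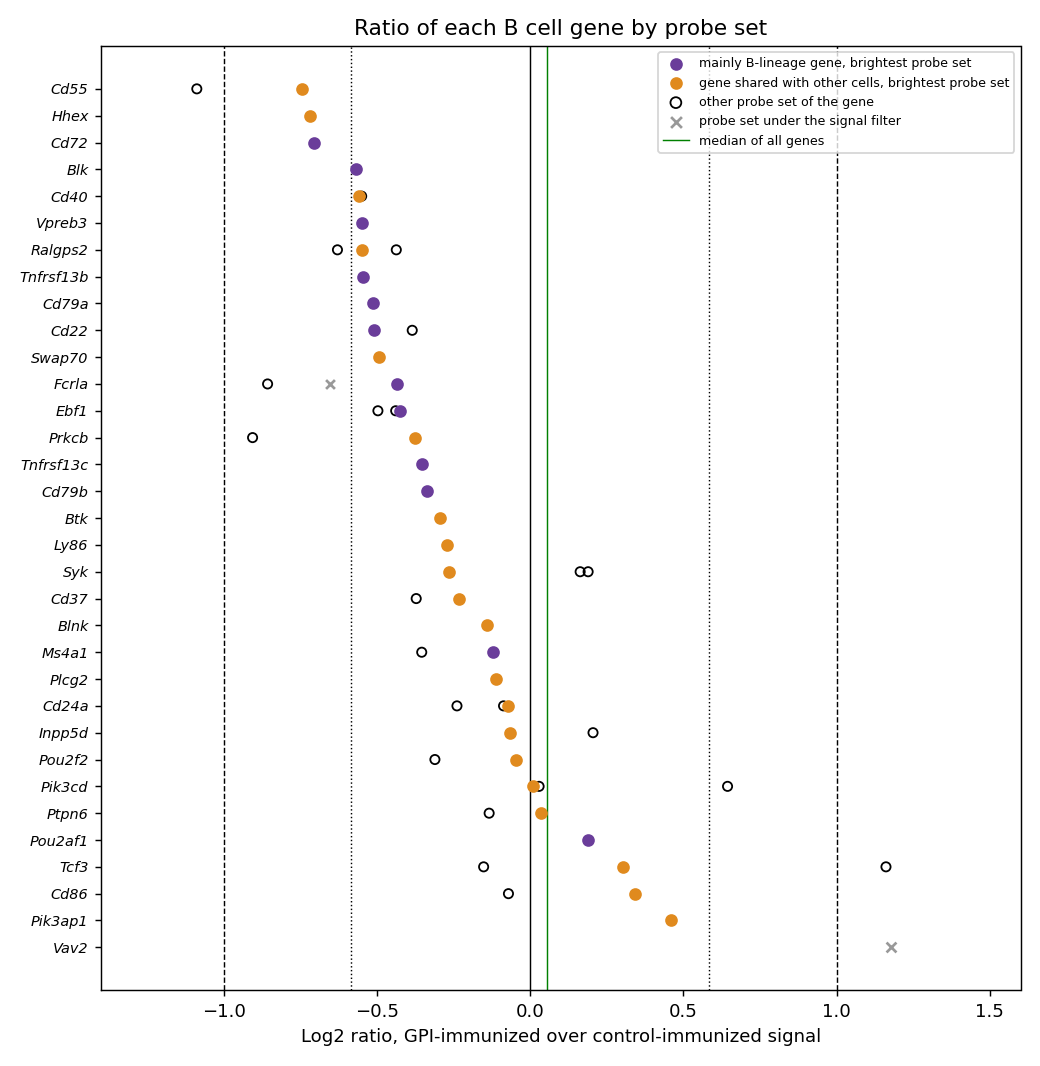
Log2 of the GPI-immunized over the control-immunized signal (horizontal axis) for each measured B cell gene, with filled circles for the brightest probe set, open circles for the others and crosses under the signal limit (1 array per group; dotted lines, 1.5-fold; dashed lines, 2-fold). Cd55, Hhex and Cd72 lie beyond the lower 1.5-fold line, and the probe sets of Syk, Inpp5d, Ptpn6, Tcf3 and Cd86 fall on both sides of 0.

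The transcription factors were not alike. Hhex (15242), a homeobox factor used in early B cell development and also outside the lineage, read 399.3 on the GPI-immunized and 657.1 on the control-immunized array, a ratio of 0.608. Ebf1 (13591), which specifies the B lineage, read 135.1 against 181.5 (0.744), and its 3 probe sets agreed closely, from 0.709 to 0.744. The other 3 factors lay near or above 1. Pou2f2 (Oct-2) read 79.3 on the GPI-immunized and 81.8 on the control-immunized array (0.969), with a second probe set at 0.806. Pou2af1 (18985, also called OBF-1), the coactivator of octamer-binding factors and a gene that plasma cells keep on, read 1764.6 against 1547.5, a ratio of 1.14 and the only value above 1 among the 12 measured genes known mainly from B-lineage cells. Tcf3 (21423) read 485.4 against 393.1 (1.23), but its other probe sets ran from 0.900 to 2.24, so its level is poorly fixed.

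Since Pou2f2, Pou2af1 and Ebf1 are themselves members, the windows of 250 bases before the RefSeq transcription starts were searched for the letters these factors recognise, on both strands. RefSeq (build GRCm38.p6) gave windows for 27 of the 33 genes by symbol. The octamer ATGCAAAT was found for 3 of the 27 (Blnk, Prkcb and Vpreb3), against 1.81% of 27025 genes with a window. The letters CCCNNGGG, the core that Ebf1 recognises, were found for 2 (Cd22 and Cd55), against 13.4% of all genes. The E-box CAGCTG, which Tcf3 can bind, was found for Prkcb and Tnfrsf13c (14.7% of all genes), and no match overlapped another. A match describes these letters and is not evidence of binding. The 150 bases before the start are shown 5′ to 3′ on the strand of the gene for the 5 octamer and Ebf1 core matches, with the match in capitals, because they hold letters read by factors that are members themselves. The windows lie at chr19:40994222-40994371 (minus strand) for Blnk, chr7:122288975-122289124 (plus) for Prkcb, chr10:75948150-75948299 (plus) for Vpreb3, chr7:30879029-30879178 (minus) for Cd22 and chr1:130462745-130462894 (minus) for Cd55.
Blnk, octamer: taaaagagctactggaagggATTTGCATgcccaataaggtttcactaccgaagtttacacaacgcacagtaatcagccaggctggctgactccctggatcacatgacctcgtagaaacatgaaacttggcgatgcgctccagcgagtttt
Prkcb, octamer: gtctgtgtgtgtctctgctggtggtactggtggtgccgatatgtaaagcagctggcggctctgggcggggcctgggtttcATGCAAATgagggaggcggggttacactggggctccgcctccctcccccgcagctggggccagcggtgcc
Vpreb3, octamer: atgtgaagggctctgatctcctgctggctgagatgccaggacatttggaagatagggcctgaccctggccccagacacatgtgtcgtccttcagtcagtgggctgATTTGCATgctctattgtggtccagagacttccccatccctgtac
Cd22, Ebf1 core: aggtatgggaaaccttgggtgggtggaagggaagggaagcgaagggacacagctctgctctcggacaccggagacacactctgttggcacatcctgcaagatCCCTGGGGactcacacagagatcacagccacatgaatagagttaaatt
Cd55, Ebf1 core: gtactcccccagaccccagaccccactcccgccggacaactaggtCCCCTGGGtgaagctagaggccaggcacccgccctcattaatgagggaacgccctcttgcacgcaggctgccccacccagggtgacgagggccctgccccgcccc

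The octamer genes were not alike in ratio, from 0.683 for Vpreb3 to 0.908 for Blnk. Vpreb3, a relative of the surrogate light chain of precursor B cells, read 169.3 on the GPI-immunized array against 247.9 on the control-immunized array. Fcrla, an intracellular Fc receptor relative of B cells, read 401.5 against 542.8 (0.740), and its second probe set 256.8 against 465.1 (0.552).

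Genes known in the spleen mainly from B-lineage cells stood further below 1 than genes that other cells share. Of all genes 42.4% had a ratio below 1, and their median log2 ratio was 0.06. Of the 12 mainly B-lineage genes 11 had a ratio below 1, with a median log2 ratio of -0.47 (SD 0.24), a ratio of 0.721. Of the 20 shared genes that passed the limit 15 had a ratio below 1, with a median of -0.19 (SD 0.33), a ratio of 0.879. The ranges overlapped widely, from 0.612 to 1.14 for the mainly B-lineage genes and from 0.597 to 1.37 for the shared ones. With the spike scaling the medians were -0.28 and 0.01, and the median of all genes was 0.26. For 17 members more than 1 probe set passed the limit. In 11 of these 17 genes all such probe sets were below 1 and in 5 they fell on both sides, and over all 55 member probe sets past the limit 43 were below 1. The same shares over the probe sets of all genes were not taken, so these counts are not read further.

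**Figure D3:**
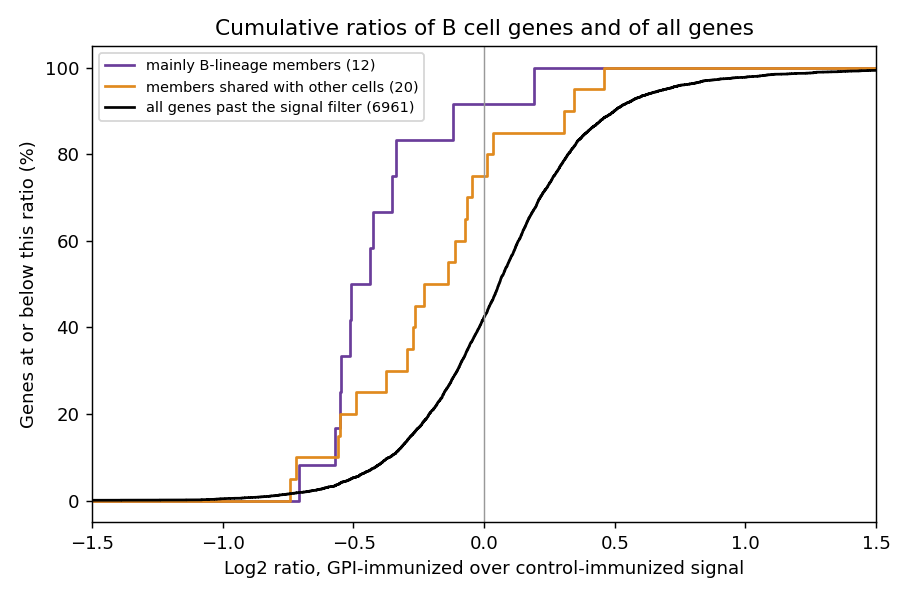
Share of genes (vertical axis, percent) at or below a given log2 of the GPI-immunized over the control-immunized signal (horizontal axis), for 12 mainly B-lineage members, 20 members shared with other cells and all 6961 genes past the signal limit, from 1 array per group. The curve of the mainly B-lineage genes crosses 50% at about the median of -0.47, that of the shared genes at -0.19 and that of all genes at 0.06.

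The rest of the receptor pathway lay around 1. Of 65 other pathway genes 51 were measured and 47 passed the limit, with a median log2 ratio of -0.02. Of the 47 genes 24 had a ratio below 1 (42.4% of all genes) and 23 above. Some of the 24 and some of the 23 had probe sets on both sides of 1. At least 1.5-fold lower was 1 gene (3.23% of all genes), the NF-κB subunit Rel (0.645, named after its value was seen). At least 1.5-fold higher were 4 (7.04% of all genes), the adaptor Nck1 (1.93), the inhibitory receptor Pirb (1.68), the adaptor Dok2 (1.65, past the limit on the GPI-immunized array only) and the exchange factor Vav3 (1.57, with a probe set at 1.455). Neither count is read as a result about these genes. Many of these genes serve other leukocytes too, and Pirb is a receptor of myeloid cells as well as B cells. The coreceptor gene Cr2 read 1236.2 on the GPI-immunized and 1557.5 on the control-immunized array (0.794). Of 20 other B cell transcription factor genes 18 passed the limit, with a median of -0.23. Of these 18 genes 14 had a ratio below 1 (42.4% of all genes). Among the 14, Irf4, Irf8, Mef2c and Runx1 had other probe sets above 1. The lowest of the 18 were Bach2 and Ets1. Bach2, which holds back plasma cell differentiation, was at 359.9 on the GPI-immunized against 661.5 on the control-immunized array (0.544). Ets1, which T cells share, was at 0.596, with probe sets past the limit up to 0.849. The highest were Spi1 (PU.1, also a myeloid factor) at 1.61 and Ikzf1 at 1.51. Pax5 read 15.0 on the GPI-immunized and 6.4 on the control-immunized array, both under the limit.

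Lists for B cell stages were not alike. Each list holds few genes, and 42.4% of all genes were below 1, or 20.53% to 54.89% with the other scalings. The counts are therefore not read as results about the stages. All 5 follicular B cell genes past the limit had a ratio below 1 (median log2 ratio -0.64). Among them were the low-affinity IgE receptor Fcer2a at 705.5 on the GPI-immunized against 1437.2 on the control-immunized array (0.491, other probe set 0.600) and the homing receptor Ccr7 at 0.641, which T cells share. Of 6 marginal zone genes 5 were below 1 (median -0.32), with Cd1d1 at 0.498 (other probe set 0.697), whereas Cd9, also a platelet and myeloid gene, was at 1.81. Of 4 genes of immature and precursor stages 3 were below 1, namely Akap12 (0.482, past the limit on the control-immunized array only), Sox4 (0.538) and Il7r (0.565, other probe set 0.641), the last also a T cell gene. Cd93 was above 1, at 117.1 on the GPI-immunized against 93.5 on the control-immunized array (1.25). The precursor genes Rag1, Rag2, Vpreb1, Igll1 and Dntt were under the limit. Of 5 germinal centre genes past the limit, Mef2b, Gcsam and Fas passed it on the GPI-immunized array only and so could only lie above 1, and no count or median of the list is read for that reason. The 2 that passed on both arrays were Basp1, at 397.3 on the GPI-immunized against 164.6 on the control-immunized array (2.41), and Bcl6, the repressor that germinal centre B cells need, at 232.0 against 166.1 (1.40, named after its value was seen). Gcsam read 73.0 against 23.4 (3.12) and Fas, which many cells carry, 87.7 against 49.5 (1.77). Mef2b, a factor of germinal centre B cells, read 80.5 against 3.0, the second value within the range of the bacterial probe sets, so no fold is given. The plasma cell list was divided. Over the 7 of its genes past the limit on both arrays the median was 0.15, with 6 above 1. Xbp1, the regulator of the secretory apparatus, read 2410.9 against 1275.6 (1.89), with other probe sets down to 1.16. Creld2 and Derl3, which serve protein folding and disposal in the endoplasmic reticulum, were at 1.91 and 1.65. Fkbp11, another gene of that apparatus, was at 2.10 but past the limit on the GPI-immunized array only. Within the spread between probe sets (these named after their values were seen) lay the joining chain gene Jchain, at 5909.9 against 5850.2 (1.01), Ell2 (1.05), the surface marker Sdc1 (1.11) and Irf4 (0.881). Irf4 had another probe set at 1.67, so no side of 1 can be given for it, and a further probe set of Sdc1 was at 1.44. Prdm1 and Tnfrsf17 were under the limit. Of 3 B-1 cell genes 2 were below 1, Cd5 (0.677) and Ctla4 (0.740), both also T cell genes.

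**Figure D4:**
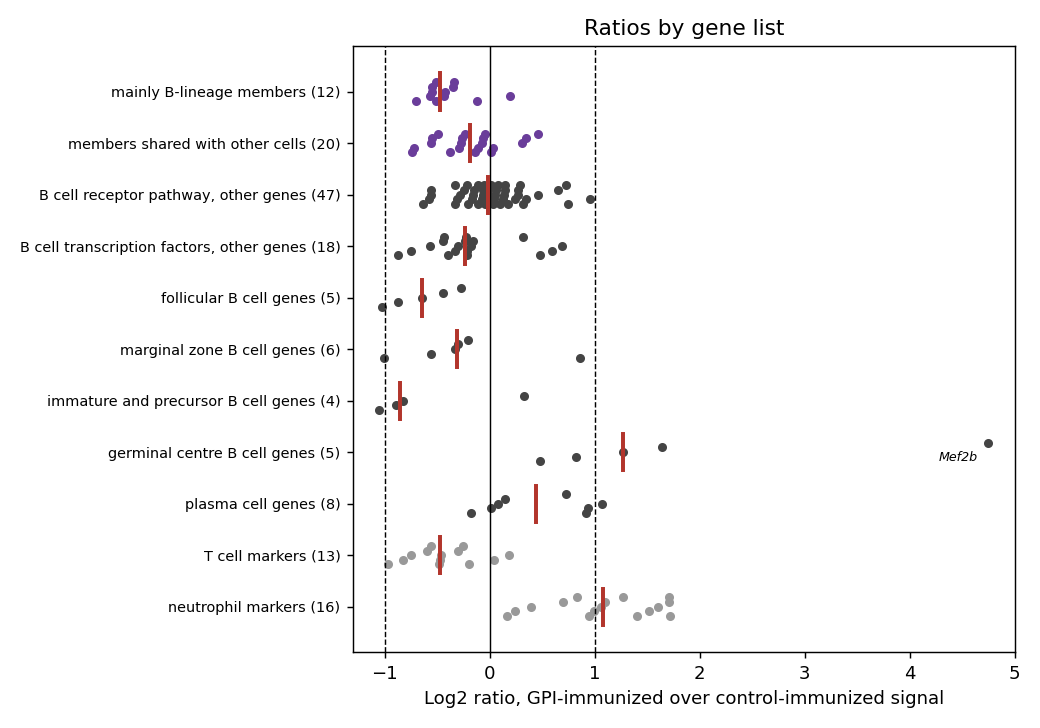
Log2 of the GPI-immunized over the control-immunized signal (horizontal axis) for the genes of each list past the signal limit, 1 point per gene and a red bar at the median, with the number of genes in parentheses (1 array per group; dashed lines, 2-fold). The mainly B-lineage and follicular lists lie mostly to the left of 0 with medians of -0.47 and -0.64. The bars of the germinal centre, plasma cell and neutrophil lists include 3, 1 and 1 genes past the limit on the GPI-immunized array only, which leaves 2 germinal centre genes and medians of 0.15 for plasma cell and 1.06 for neutrophil genes. The shared members (Pik3ap1) and the pathway list (Dok2) also hold such a gene. The immature and precursor list holds Akap12, past the limit on the control-immunized array only, and has a median of -0.82 without it.

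Markers of other splenic cells differed between the same arrays. All 16 measured neutrophil markers had a ratio above 1 (median log2 ratio 1.08, or 1.06 over the 15 past the limit on both arrays), and their summed signal was 53254.5 on the GPI-immunized against 35798.9 on the control-immunized array. Of 13 T cell markers past the limit 11 were below 1 (42.4% of all genes). Their median was -0.48, close to the -0.47 of the mainly B-lineage genes. The summed signal over 14 measured T cell markers was 1897.4 on the GPI-immunized against 2635.6 on the control-immunized array. A lower signal was thus seen for T cell as well as B cell genes, and the difference between their medians was not tested. Macrophage and monocyte markers had a median of 0.21 (12 of 13 above 1), platelet markers 0.40 (4 of 4 above 1), and NK cell (-0.25), dendritic cell (-0.15, or -0.02 over the 3 genes past the limit on both arrays) and erythroid markers (-0.33) had medians below 0. No measured marker of these cells was listed at 0. What part a different cell composition has in the ratios of the B cell genes was not tested.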

How the data were processed

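The deposited values were intensities on a linear scale, 1 signal per probe set and array, made by the authors from biotin-labelled splenocyte RNA with software they call gene expression software. How probes were summarised and arrays scaled was not given in the sources used here, and the labels name another labelling kit than the methods. Probe sets were named from the platform annotation (20380 with 1 symbol, 691 with several, 1555 with none), and per gene the one with the highest mean log2 signal was kept. Signals of 0 (3 values) were set to 0.1, with no further scaling. The steps were tested on simulated data. Python 3.11.15, numpy 2.4.6, pandas 2.3.3, statsmodels 0.14.6 and matplotlib 3.10.9 were used. The members and lists were chosen with earlier results of these data known. Every member was to be given, and of other lists up to 4 genes furthest from 1 past the limit whose probe sets lay on 1 side, plus Pax5 and a gene that is not reported here. Promoter windows of 250 bases were searched for motifs. In all, 13 alternatives were run, 2 of them (mean signal filter, spike scaling) chosen after seeing the data. The other experiments of the study were not analysed here.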

Additional observations from a re-analysis of the deposited data

How the results depend on the processing

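The difference between the median log2 ratio of the members and that of all genes was -0.43 with the second brightest probe set and -0.35 to -0.40 under the other alternatives. Division by the median and spike scaling move all genes alike, so this difference could hardly respond to them. The median of the members itself was -0.43 after division by the array medians, -0.42 with quantile scaling, -0.38 with loess and -0.12 with spike scaling. In the same order, members at least 1.5-fold lower numbered 10, 10, 8 and 0, beside 5 with the mean of probe sets and 6 with the second probe set. The shares of all genes were 5.49%, 5.52%, 5.16%, 1.26%, 3.41% and 3.68%. At least 1.5-fold higher were 2 with the second probe set, 1 with no signal limit and 1 with spike scaling. At least 2-fold lower was 1 and at least 2-fold higher 1 with the second probe set, and 1 was at least 2-fold higher with no limit. The shares of all genes for these 3 classes were taken for the main results only. They were 7.04% (1.5-fold higher), 0.445% (2-fold lower) and 2.23% (2-fold higher), so these counts under the alternatives are not read further. The mainly B-lineage median was -0.563 after division by the medians, -0.555 with quantile and -0.275 with spike scaling. The shared median was -0.32, -0.31 and -0.28 with the 3 array scalings, -0.27 with the limit at the 75th percentile, and turned to 0.011 with spike scaling. Below 1 under all alternatives were 19 members and above 1 were 3 (Pou2af1, Tcf3 and Pik3ap1). Vav2, under the limit, stayed above 1 except where signals were raised to at least the 50th percentile, which put it at 1.0. How many of all genes kept their side was not counted, so these counts are not read further. The other 10 changed side, 5 of them with spike scaling alone (Blnk, Cd24a, Ms4a1, Plcg2 and Pou2f2). Of 425 single member values 410 moved by less than the probe set spread and 15 by more. Syk, Cd86, Inpp5d and Ptpn6 turned with the second probe set. No paired analysis was possible because each group has 1 array, and the number of arrays limits the precision of every value.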
